A study of Mus musculus with 9 samples.

Results

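The genes described here are 34 components of protein folding in the endoplasmic reticulum (ER) and of the unfolded protein response. These were listed by name as a pathway, with no measured value in the rule, but with earlier results of these data known. They are lumenal chaperones, lectin chaperones, disulfide enzymes, translocon subunits, ER-associated degradation factors, the stress sensors, the transcription factors they control and targets of the integrated stress response. Of the 34, 31 were measured and tested among 16899 genes. The rows of Pdia4 and Manf also name another gene and were not used, and Trib3 lay below the filter on low values. Ero1l and Ero1lb of the list carry the current names Ero1a and Ero1b.

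Messenger RNA was measured on microarrays in inguinal white adipose tissue, a fat depot under the skin of the groin, with 3 arrays in each of 3 groups. Knockout mice were homozygous for the floxed allele (Zfp423loxP/loxP), carried Adiponectin-rtTA together with Tre-CRE, and were held at room temperature. Cold-exposed controls, which were Zfp423+/+ and carried Adiponectin-rtTA together with TRE-Cre, spent the last 14 days at 6 °C, and room temperature controls had the same control genotype. Mice of every group received doxycycline chow for 28 days from 8 weeks of age, so the controls carried both transgenes and the drug but no floxed allele. The adiponectin promoter drives the transgene in adipocytes, while the pad also holds stromal, vascular and immune cells whose Zfp423 is not targeted. Zfp423 encodes a zinc finger protein of adipocytes, and the comparison asks how far fat lacking it resembles the thermogenic beige fat of the cold. Nothing in the labels ties each array to its own mouse, so the p-values reflect the spread among arrays alone, which may be technical.

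Proteins made for secretion enter the ER through the Sec61 channel and fold there with the help of chaperones, oxidoreductases that form disulfide bonds, and a calnexin and calreticulin cycle that reads their sugar chains. When unfolded protein accumulates, the sensors IRE1 (gene Ern1), PERK (Eif2ak3) and ATF6 start the unfolded protein response: IRE1 splices Xbp1 mRNA, PERK slows translation and raises ATF4 and CHOP (Ddit3), and ATF6 is cut to release a transcription factor. Adipocytes secrete large amounts of adiponectin, a disulfide-linked multimer whose assembly depends on ER oxidoreductases and chaperones.

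The values are the deposited log2 levels, which ran from 1.84 to 19.93 over the table, and they carry no detection call. All 7 adipocyte markers were measured, and the log2 of their summed level lay between 20.30 and 20.51 on the 9 arrays. All 10 mammary epithelial markers lay below the filter, a row mean of 5.31, the highest at 5.25. Zfp423 read 7.56, 8.15 and 8.04 in knockout, 8.83, 8.72 and 8.40 in cold and 8.74, 8.22 and 8.40 in room temperature controls. It was lower by 0.53 ± 0.20 in knockout than in room temperature controls without passing the test (log2 difference of -0.53, adjusted p = 0.256), and the arrays did not overlap. The labels do not say which part of the gene its row reads. Ucp1, the uncoupling protein of thermogenic fat, was higher than in room temperature controls by 6.90 ± 0.47 in knockout (adjusted p = 0.00863) and by 6.61 ± 0.47 in cold (adjusted p = 0.00226). In 73.8% of the genes with 3 different values in knockout, the array of replicate 3 lay between the other two knockout arrays. The same held for replicate 3 of the room temperature controls in 67.3% of genes and for replicate 2 of the cold in 52.9%. Whether these in-between arrays are independent of the others was not tested. If they are not, the spread within groups is understated and the adjusted p-values given here are too small. With the in-between arrays left out, which leaves 2 per group, 0 of all genes passed in any comparison, so that fit gives no check on calls. The log2 differences given below for Pdia6 and Creld2 were then -0.48 in knockout for Pdia6 and -0.48 in cold for Creld2, against -0.47 and -0.45 over all arrays.

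Few members differed between groups beyond the spread between arrays. Errors given with log2 differences are limma's moderated standard errors, and a gene passed at an adjusted p under 0.05 over all genes tested. In knockout against room temperature controls 1 of 31 members passed, Pdia6, which was lower, against 0.367% of all genes (0.142% lower and 0.225% higher). In cold against room temperature controls 2 members passed, Pdia6 and Creld2, both lower, against 1.51% of all genes (0.189% lower and 1.32% higher). In cold against knockout 1 member passed, Ppp1r15a, which was lower in cold, against 2.40% of all genes (1.15% lower and 1.24% higher). No member passed in the higher direction in these fits. An unadjusted p under 0.05 was reached by 6 members in knockout and 10 in cold against room temperature controls and by 5 in cold against knockout, beside 16.2%, 20.3% and 26.7% of all genes.

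The members' differences were centred near 0. Their median log2 difference was 0.00 in knockout and -0.07 in cold against the shared room temperature controls, beside 0.02 and -0.02 over all genes tested. In cold against knockout it was -0.06, beside -0.03. In knockout 15 members lay above and 15 below the room temperature mean, against 56.1% and 42.9% of all genes. In cold 7 lay above and 24 below, against 42.7% and 56.0% of all genes. With quantile normalization these splits became 12 and 19 in knockout and 10 and 21 in cold, and with arrays centred on their median 12 and 19 in both. Of all genes, 51.9% then lay below in knockout and 47.6% in cold with quantile normalization, and 53.2% and 45.6% with centring. Cold against knockout had 9 members above and 22 below as deposited, 15 and 16 with quantile normalization and 16 and 15 with centring, so that split depended on the scaling. Of all genes as deposited, 42.5% lay above and 56.4% below in that comparison, with 43.7% below under quantile normalization and 41.3% with centring.

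The groups did not overlap in at least 1 comparison for 15 members. The share of all genes was not taken for that count, so each comparison is given apart. Knockout arrays lay above all room temperature arrays in 4 members (12.9%) and below them in 5 (16.1%), against 9.31% and 8.01% of all genes. Cold arrays lay above in 3 (9.68%) and below in 8 (25.8%), against 14.6% and 18.1%. Cold arrays lay above all knockout arrays in 3 members (9.68%) and below them in 6 (19.4%), against 12.3% and 20.0%. Over the 9 arrays the spread of a member ran from 0.03 for Ern1 to 1.67 for Dnajb9, and it was 1 or more for Dnajb9, Ero1a, Ero1b, Xbp1 and Ddit3. Repeated values were common: 17 of 31 members held an identical value on 3 or more arrays, against 38.5% of all genes, so several groups below read as flat.

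**Figure D1:**
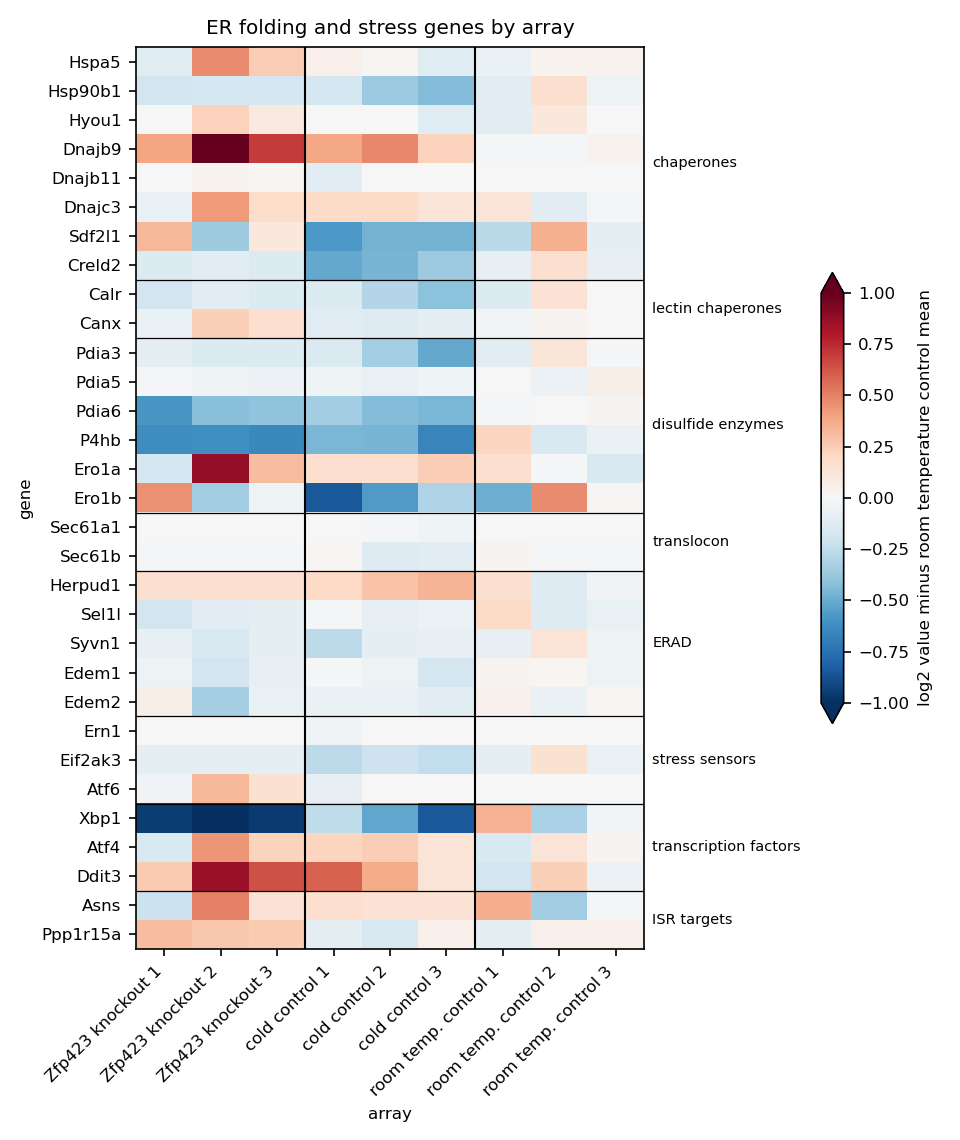
Heat map of the 31 members tested (rows, ordered by role) on the 9 arrays (columns: knockout, cold, room temperature control). Colour gives the log2 value minus the mean of the 3 room temperature arrays, on a scale from -1 to 1. Pdia6, P4hb and Xbp1 are lower on all 3 knockout arrays, Dnajb9 and Ddit3 are higher there, and most other rows show differences within a group as large as those between groups.

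The promoters of many members carry the DNA element through which the ER stress response acts. RefSeq promoters of assembly GRCm38.p6, from 250 bases before to 50 bases after the annotated start, were found for 30 of the 34 members (not for Atf6, Hyou1, Manf and Sec61a1). The ER stress element was searched on both strands as CCAAT, 9 bases of any kind, and CCACG. Its CCAAT end is known to bind NF-Y and its CCACG end ATF6 or XBP1. It stood in 9 of 30 member promoters (30%), against 0.119% of all 32851 promoters in the table. The members were listed as genes of this response, so that share describes the list and is no result of these arrays. The 10 matches are shown because they include both members that were lower in the cold, Pdia6 and Creld2. Each is read 5′ to 3′ on the strand given, with the CCAAT and CCACG ends in capitals.
Pdia6 (chr12:17266491-17266509, plus strand): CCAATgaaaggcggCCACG
Creld2 (chr15:88819520-88819538, minus strand): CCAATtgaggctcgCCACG
Hspa5 (chr2:34772025-34772043, plus strand): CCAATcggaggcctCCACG
Hsp90b1, nearer the start (chr10:86705533-86705551, plus strand): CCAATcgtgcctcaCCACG
Hsp90b1, farther from the start (chr10:86705638-86705656, minus strand): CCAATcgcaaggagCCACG
Calr (chr8:84847075-84847093, plus strand): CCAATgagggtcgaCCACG
Canx (chr11:50325800-50325818, minus strand): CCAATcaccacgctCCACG
Dnajc3 (chr14:118937827-118937845, plus strand): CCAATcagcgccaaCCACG
Ero1b (chr13:12565682-12565700, minus strand): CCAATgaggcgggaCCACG
Syvn1 (chr19:6046532-6046550, plus strand): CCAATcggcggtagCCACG

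The element of Pdia6 begins 98 bases before the annotated start and that of Creld2 126 bases before it, the Creld2 one in the opposite orientation to the gene. Hspa5 has its match 65 bases before the start and Syvn1 44 bases before it. Herpud1 and Dnajb11 instead hold the second form of the element (ATTGG, 1 base, CCACG), which 0.0365% of all promoters hold. The ATF4 composite element, searched as TGATGNAA, stood in the promoters of Asns, Herpud1 and Trib3, against 3.97% of all promoters. The XBP1 core TGACGTGG was in 0 of the 30 promoters, against 0.676% of all, which says only that these letters are not in this window. No 2 of these motifs overlapped in a member. Member promoters had a median GC content of 63.15%, against 52.7% for all promoters. A match is a description of the letters and not a measured binding site.

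Whole promoters are given for Pdia6 and Creld2, which passed a test, and for Herpud1, which holds elements of 2 kinds, each on the strand of the gene with its matches in capitals.
Pdia6 (chr12:17266339-17266638, plus strand): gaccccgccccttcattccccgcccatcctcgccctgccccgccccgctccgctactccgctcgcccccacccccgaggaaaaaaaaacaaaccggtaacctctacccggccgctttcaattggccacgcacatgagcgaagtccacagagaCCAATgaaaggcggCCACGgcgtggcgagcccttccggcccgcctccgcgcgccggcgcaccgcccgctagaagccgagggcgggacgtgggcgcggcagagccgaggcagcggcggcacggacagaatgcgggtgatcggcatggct
Creld2 (chr15:88819396-88819695, plus strand): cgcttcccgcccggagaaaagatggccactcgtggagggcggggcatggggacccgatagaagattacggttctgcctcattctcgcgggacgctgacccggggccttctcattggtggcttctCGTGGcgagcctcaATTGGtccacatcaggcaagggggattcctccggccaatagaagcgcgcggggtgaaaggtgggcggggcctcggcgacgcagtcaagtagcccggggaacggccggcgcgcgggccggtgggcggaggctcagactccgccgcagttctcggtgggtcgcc
Herpud1 (chr8:94386179-94386478, plus strand): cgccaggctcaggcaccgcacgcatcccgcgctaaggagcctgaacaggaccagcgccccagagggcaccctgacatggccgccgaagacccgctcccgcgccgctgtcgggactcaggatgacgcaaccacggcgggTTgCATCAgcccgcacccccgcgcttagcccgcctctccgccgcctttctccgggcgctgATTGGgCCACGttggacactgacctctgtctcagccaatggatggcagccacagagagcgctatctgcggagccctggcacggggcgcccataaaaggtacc

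**Figure D2:**
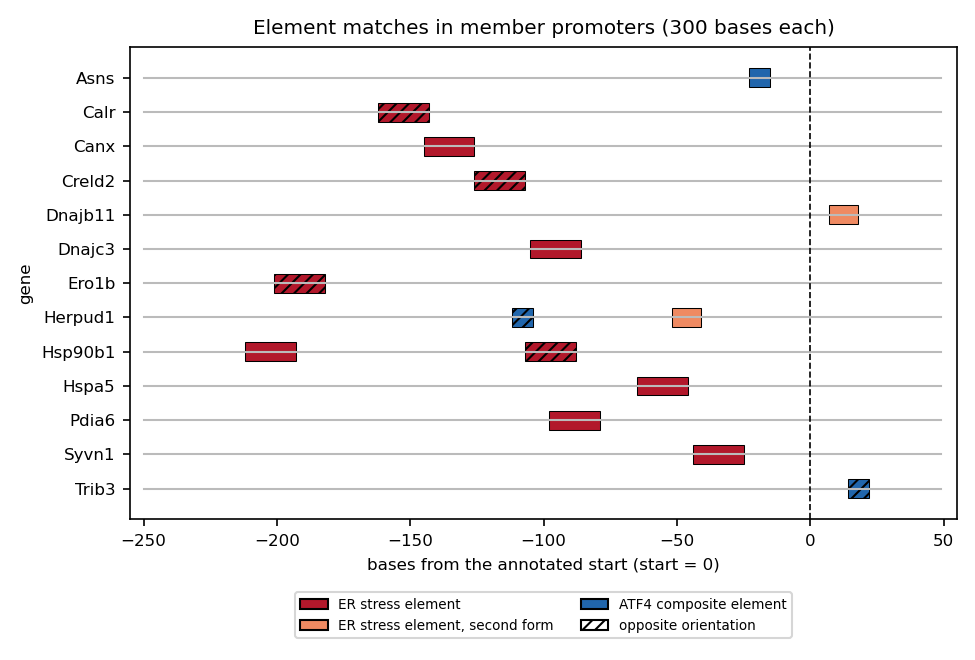
Positions of the promoter matches of the members, in bases from the annotated start (0), with 1 row per gene. Colours mark the ER stress element, its second form and the ATF4 composite element, and hatched bars lie in the opposite orientation to the gene. All 10 ER stress elements begin upstream of the start, from 44 to 212 bases before it.

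Members with and without the element are set side by side as a description only. The 11 tested members with either form of it had a median log2 difference of 0.02 in knockout and -0.15 in cold against room temperature controls. The 17 tested members with a promoter but neither form had medians of -0.01 and -0.07. In cold 9 of the 11 lay below the room temperature mean and 2 passed the test, and of the 17 without it 12 lay below and 0 passed, beside 56.0% below and 1.51% past the threshold for all genes. The 2 that passed are the genes for which the element is shown first.

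Among the disulfide enzymes, Pdia6 was lower in knockout and in cold than in room temperature controls. Pdia6 is a protein disulfide isomerase that also binds IRE1. It read 11.26, 11.43 and 11.44 in knockout, 11.50, 11.41 and 11.38 in cold and 11.82, 11.84 and 11.87 in room temperature controls. Every knockout and cold array lay below every room temperature array, while knockout and cold overlapped. Pdia6 fell by 27.6% in knockout (log2 difference of -0.47 ± 0.06, adjusted p = 0.0376) and fell by 24.8% in cold (-0.41 ± 0.06, adjusted p = 0.0256). Both differences use the same 3 room temperature arrays. Cold minus knockout was 0.05 ± 0.06 (adjusted p = 0.583). An exact permutation test of 3 arrays against 3 gave a two-sided p of 0.1 for Pdia6 in knockout, the smallest it can give.

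The calls for Pdia6 depended on single arrays. In knockout it passed without knockout replicate 1 (adjusted p = 0.015) and without control replicate 2 (0.0369), and missed the threshold without any other array, with adjusted p from 0.0571 without knockout replicate 2 to 0.206 without control replicate 3. In cold it passed without knockout replicate 1 (0.0072) or 2 (0.0186) and missed it otherwise, from 0.0581 without cold replicate 1 to 0.136 without cold replicate 2. The log2 difference itself stayed between -0.50 and -0.41 in knockout and between -0.45 and -0.39 in cold as single arrays were left out.

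P4hb, the classical protein disulfide isomerase and a subunit of collagen prolyl hydroxylase, read 12.56, 12.57 and 12.54 in knockout, 12.73, 12.72 and 12.52 in cold and 13.40, 13.03 and 13.12 in room temperature controls. Its knockout and cold arrays all lay below the room temperature arrays. The log2 difference was -0.63 ± 0.10 in knockout (adjusted p = 0.0578) and -0.53 ± 0.10 in cold (adjusted p = 0.0603), neither of which passed. Quantile normalization and the stricter filter brought both under 0.05. The knockout difference also passed without knockout replicate 1 (adjusted p = 0.0446) or control replicate 2 (0.0367), and the cold difference without knockout replicate 2 (0.048).

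Fibroblast and matrix markers were at lower levels in the same groups as P4hb and Pdia6. The log2 of the summed level of the 7 measured markers of 8 listed ran from 15.45 to 16.28 in knockout, from 15.50 to 15.76 in cold and from 16.11 to 16.85 in room temperature controls. Their median log2 difference was -0.71 in knockout and -0.97 in cold against room temperature controls, with none of the 7 past the threshold, and none of their values was 0. Their part in the members' differences was not tested. In whole tissue, fewer cells of a type and less RNA per cell cannot be told apart.

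The other disulfide enzymes did not pass in any comparison. Pdia3, which acts with the lectin chaperones, read 13.30, 13.26 and 13.26 in knockout, 13.25, 13.06 and 12.88 in cold and 13.29, 13.52 and 13.39 in room temperature controls. Its cold arrays lay below both other groups (cold minus room temperature -0.33 ± 0.10, adjusted p = 0.139). Pdia5 kept within 0.13 over all 9 arrays. Ero1a, the oxidase that recharges disulfide isomerases, read 9.43, 10.48 and 9.92 in knockout, a wider range than the 9.77 to 9.85 of cold or the 9.46 to 9.77 of room temperature controls.

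Ero1b, the second such oxidase and in the mouse abundant in pancreas, had the largest cold difference of all members without passing. It read 9.27, 8.47 and 8.76 in knockout, 7.97, 8.25 and 8.50 in cold and 8.33, 9.29 and 8.82 in room temperature controls. The 3 groups overlapped, and cold minus room temperature was -0.57 ± 0.30 (adjusted p = 0.313). Plasma and B cell markers had the same order of arrays within each group: the log2 of the summed level of their 7 measured genes was 13.52, 11.85 and 12.84 in knockout, 11.05, 11.71 and 12.1 in cold and 12.09, 13.80 and 12.97 in room temperature controls. Of the 10 markers listed, Tnfrsf17 and Derl3 lay below the filter. The T cell and macrophage lists had the same order in knockout and room temperature controls, and the T cell list did not in cold. In cold the macrophage list lacked it by the log2 of its summed level (14.97, 15.06 and 15.00). By its mean difference from room temperature controls (-1.26, -1.15 and -1.05) the macrophage list had it. In each group the middle array of the Ero1b order also lay between the other 2 for most genes with 3 different values. The part of plasma, B and T cells and macrophages in the Ero1b values was not tested.

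**Figure D3:**
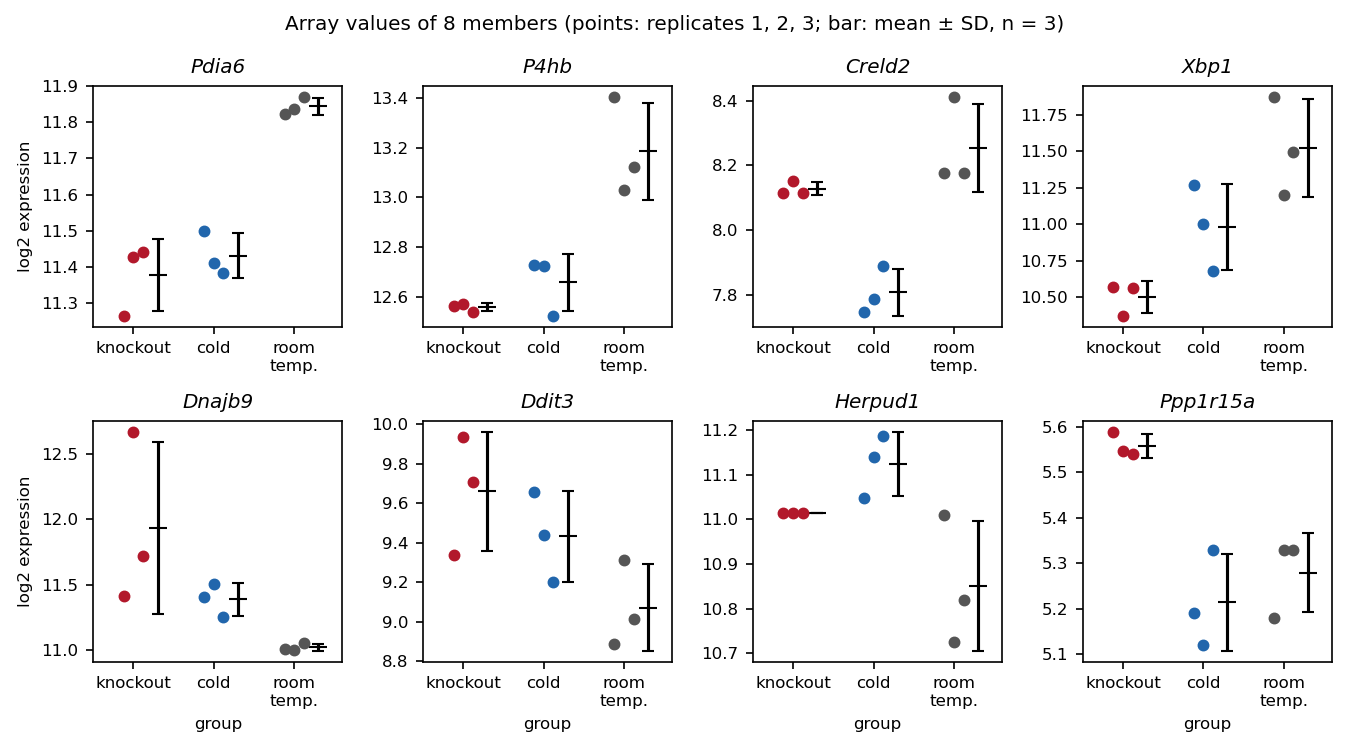
Log2 values of 8 members on each array (points) with the group mean and SD (n = 3 arrays), knockout, cold and room temperature control from left to right. Pdia6 and P4hb are below the room temperature arrays in both other groups, Creld2 is lowest in cold, Ppp1r15a is highest in knockout, and the knockout arrays of Dnajb9 spread from 11.41 to 12.67.

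Of the lumenal chaperones and their partners, Creld2 was lower in cold. Creld2 is a secreted and ER-resident protein with disulfide isomerase activity, known as a target of ATF6. Its values were 8.12, 8.15 and 8.12 in knockout, 7.75, 7.79 and 7.89 in cold and 8.18, 8.41 and 8.18 in room temperature controls. All cold arrays lay below all others, and the knockout arrays lay below the room temperature arrays by a narrow margin. Creld2 fell by 26.6% in cold against room temperature controls (log2 difference of -0.45 ± 0.07, adjusted p = 0.0371). In knockout the difference was -0.13 ± 0.07 (adjusted p = 0.442), and cold minus knockout was -0.32 ± 0.07 (adjusted p = 0.0653). The cold call held without knockout replicate 1 (0.0344) or 2 (0.0302) or control replicate 2 (0.0487). It was lost without any of the other 6 arrays, from 0.071 without control replicate 1 to 0.167 without cold replicate 2. Its log2 difference in those 6 fits stayed between -0.49 and -0.42, and it was -0.37 without control replicate 2. Cold against knockout passed for Creld2 without control replicate 2 (adjusted p = 0.0299).

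Dnajb9 encodes ERdj4, a co-chaperone of BiP that restrains IRE1 and is itself an XBP1 target. It read 11.41, 12.67 and 11.72 in knockout, 11.40, 11.50 and 11.25 in cold and 11.01, 11.00 and 11.05 in room temperature controls. Every knockout and cold array exceeded the room temperature arrays, but the knockout arrays differed from each other by more than 1 log2 unit. The log2 of the summed level of 8 thermogenic adipocyte markers had the same order within knockout: 18.80, 20.33 and 20.01 there, 19.6, 19.42 and 19.28 in cold and 14.05, 15.12 and 14.61 in room temperature controls. In cold and in room temperature controls its order differed from that of Dnajb9. The skeletal muscle, endothelial and adipocyte lists shared the knockout order. Its middle array, knockout replicate 3, also lay between the others for 73.8% of genes with 3 different values. Against room temperature controls 5 of the 8 thermogenic markers passed as higher in knockout and 6 in cold. The part of the thermogenic and other lists in the Dnajb9 values was not tested. Neither the knockout difference of 0.91 ± 0.29 (adjusted p = 0.193) nor the cold difference of 0.37 ± 0.29 (adjusted p = 0.494) passed. With the cold and room temperature arrays fitted alone, Dnajb9 did pass in cold (adjusted p = 0.0454).

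Hspa5 encodes BiP, the central Hsp70 chaperone of the ER, whose rise is the usual sign of ER stress. It read 11.94, 12.53 and 12.31 in knockout, 12.11, 12.07 and 11.94 in cold and 11.99, 12.09 and 12.09 in room temperature controls. The groups overlapped, with differences of 0.20 ± 0.14 in knockout (adjusted p = 0.52) and -0.02 ± 0.14 in cold (adjusted p = 0.966). BiP mRNA thus showed no difference that these arrays could resolve.

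Hsp90b1 (GRP94), the Hsp90 of the ER, read 13.62, 13.63 and 13.63 in knockout, 13.63, 13.44 and 13.37 in cold and 13.70, 13.97 and 13.75 in room temperature controls. Knockout and cold arrays lay below the room temperature arrays, with differences of -0.18 ± 0.09 in knockout (adjusted p = 0.377) and -0.32 ± 0.09 in cold (adjusted p = 0.127). Hyou1, a nucleotide exchange factor for BiP, ranged over 0.35 with overlapping groups. Dnajb11 (ERdj3) held a value of 8.09 on 6 arrays. Dnajc3 (p58IPK), a co-chaperone linked to PERK signalling, read 11.39, 11.88 and 11.64 in knockout, 11.64, 11.64 and 11.59 in cold and 11.59, 11.34 and 11.43 in room temperature controls.

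Sdf2l1, a partner of Dnajb11, read 7.64, 6.95 and 7.41 in knockout, 6.73, 6.84 and 6.83 in cold and 7.04, 7.67 and 7.22 in room temperature controls. All cold arrays lay below both other groups, with a cold difference of -0.51 ± 0.21 against room temperature (adjusted p = 0.234) and of -0.53 ± 0.21 against knockout (adjusted p = 0.162). Without knockout replicate 2 the difference of cold against knockout passed (-0.72, adjusted p = 0.0472). The plasma and B cell, T cell and macrophage lists all had this order of arrays in knockout and in room temperature controls. In both groups replicate 3, the middle array, also lay between the other 2 for most genes with 3 different values. In cold the macrophage list had the order of Sdf2l1 by the log2 of its summed level (14.97, 15.06 and 15.00). By its mean difference from room temperature controls (-1.26, -1.15 and -1.05) it did not. The plasma and B cell and T cell lists did not have that order in cold by either summary. The part of these cells was not tested.

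The lectin chaperones did not pass. Calr (calreticulin) read 12.46, 12.54 and 12.51 in knockout, 12.51, 12.35 and 12.24 in cold and 12.51, 12.79 and 12.64 in room temperature controls, a cold difference of -0.28 ± 0.09 (adjusted p = 0.165) with overlapping groups. Canx (calnexin), its membrane-bound relative, read 14.00, 14.31 and 14.24 in knockout, 13.96, 13.94 and 13.97 in cold and 14.04, 14.09 and 14.07 in room temperature controls. Cold arrays of Canx lay below all others, by 0.22 ± 0.08 on average against knockout (log2 difference of -0.22, adjusted p = 0.127). In knockout its difference of 0.11 ± 0.08 (adjusted p = 0.511) turned to -0.02 under quantile normalization. Without knockout replicate 1 Canx passed as higher in knockout (0.20, adjusted p = 0.0396) and as lower in cold than in knockout (-0.32, adjusted p = 0.0315). Without knockout replicate 2 its knockout difference was 0.051.

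The translocon subunits were the flattest group. Sec61a1, the channel, held 9.13 on most arrays and spanned 0.05 over all 9. Sec61b, its small partner, read 6.68 on all 3 knockout arrays, 6.71, 6.56 and 6.59 in cold and 6.72, 6.68 and 6.68 in room temperature controls. The groups of both genes overlapped in knockout and in cold.

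In ER-associated degradation, which extracts misfolded proteins for the proteasome, no member passed in any of the 3 comparisons. Herpud1, a stress-induced scaffold of the HRD1 ligase, read 11.01 on all 3 knockout arrays, 11.05, 11.14 and 11.19 in cold and 11.01, 10.72 and 10.82 in room temperature controls. The cold arrays were the highest of the 3 groups, and the knockout arrays lay just above the highest room temperature array. Its differences were 0.16 ± 0.08 in knockout (adjusted p = 0.345) and 0.27 ± 0.08 in cold (adjusted p = 0.127).

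Sel1l, the adaptor of HRD1, read 11.00, 11.08 and 11.10 in knockout, 11.16, 11.10 and 11.12 in cold and 11.38, 11.06 and 11.11 in room temperature controls, where the first array stood above the rest. Syvn1, the HRD1 ligase itself, ran from 7.50 to 7.90 with overlapping groups. Edem1 and Edem2, which mark glycoproteins for disposal, had knockout differences of -0.11 ± 0.06 (adjusted p = 0.424) and -0.11 ± 0.09 (adjusted p = 0.6). Their arrays overlapped between groups, so no change was resolved for them.

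The mRNAs of the stress sensors varied little. Ern1, which encodes IRE1, held 7.57 on 8 of 9 arrays, so its row carried almost no information. Eif2ak3, which encodes PERK, read 8.72 on all 3 knockout arrays, 8.55, 8.60 and 8.56 in cold and 8.72, 8.96 and 8.74 in room temperature controls. Its cold arrays lay below every other array (cold minus room temperature -0.24 ± 0.07, adjusted p = 0.128). Atf6 read 10.02, 10.39 and 10.22 in knockout, 9.98, 10.06 and 10.06 in cold and 10.06 on all 3 room temperature arrays. The sensors are switched on by changes in the protein, which these arrays do not measure.

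Among the transcription factors, Xbp1 had the largest knockout difference of all members. Xbp1 drives the genes of ER folding and degradation once IRE1 has spliced its mRNA, and a value per gene does not separate the spliced form. Its values were 10.57, 10.37 and 10.56 in knockout, 11.27, 11.00 and 10.68 in cold and 11.87, 11.20 and 11.50 in room temperature controls. Knockout arrays lay below all others, and cold arrays overlapped the room temperature arrays. The knockout difference was -1.02 ± 0.20 (adjusted p = 0.0809) and did not pass, and without control replicate 2 it passed (adjusted p = 0.0451). Cold minus room temperature was -0.54 ± 0.20 (adjusted p = 0.203), and cold minus knockout was 0.48 ± 0.20 (adjusted p = 0.179).

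The arrays of Xbp1 fell in the same order within each group as the fibroblast and matrix list. The log2 of that list's summed level was 16.28, 15.45 and 15.90 in knockout, 15.76, 15.64 and 15.5 in cold and 16.85, 16.11 and 16.41 in room temperature controls. In each group the middle array of this order also lay between the other 2 for most genes with 3 different values. The shares were 73.8% in knockout, 52.9% in cold and 67.3% in room temperature controls, so these middle arrays are shared by many genes. The part of the fibroblast and matrix list in the Xbp1 values was not tested.

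Atf4, the factor translated when PERK slows protein synthesis, read 8.16, 8.75 and 8.54 in knockout, 8.53, 8.56 and 8.45 in cold and 8.16, 8.44 and 8.34 in room temperature controls, with cold arrays just above the room temperature arrays (0.20 ± 0.15, adjusted p = 0.471). Ddit3 encodes CHOP, a factor linked to cell death under lasting stress. It read 9.34, 9.93 and 9.71 in knockout, 9.66, 9.44 and 9.20 in cold and 8.89, 9.31 and 9.01 in room temperature controls. The knockout arrays lay above the room temperature arrays by a narrow margin, and neither the knockout difference of 0.59 ± 0.19 (adjusted p = 0.199) nor the cold difference of 0.36 ± 0.19 (adjusted p = 0.321) passed.

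Of the targets of the integrated stress response, Ppp1r15a was lower in cold than in knockout. Ppp1r15a encodes GADD34, which directs the phosphatase that restarts translation after stress. It read 5.19, 5.12 and 5.33 in cold, 5.59, 5.55 and 5.54 in knockout and 5.18, 5.33 and 5.33 in room temperature controls. Knockout arrays lay above every other array, and cold overlapped room temperature. Cold minus knockout was -0.34 ± 0.07 (adjusted p = 0.0494), so that Ppp1r15a fell by 21.3% in cold relative to knockout. Against room temperature controls the knockout difference was 0.28 ± 0.07 (adjusted p = 0.11) and the cold difference -0.07 ± 0.07 (adjusted p = 0.604).

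This call is the closest to both limits. Its mean level of 5.35 is just inside the filter of 5.31, whereas Trib3, an inhibitor of AKT induced by CHOP, is just outside it at 5.135. Trib3 read 5.13, 5.13 and 5.04 in knockout, 5.31, 5.13 and 5.13 in cold and 5.13, 5.13 and 5.10 in room temperature controls. Ppp1r15a kept its call without knockout replicate 2 (adjusted p = 0.0353) or control replicate 1 (0.0382) and lost it without any of the other 7 arrays, from 0.0519 without cold replicate 3 to 0.18 without cold replicate 2, with log2 differences between -0.40 and -0.30. It also lost the call with arrays centred on their median. Asns, the asparagine synthetase that ATF4 induces, read 10.52, 11.24 and 10.88 in knockout, 10.90, 10.88 and 10.88 in cold and 11.09, 10.38 and 10.72 in room temperature controls, with overlapping groups.

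**Figure D4:**
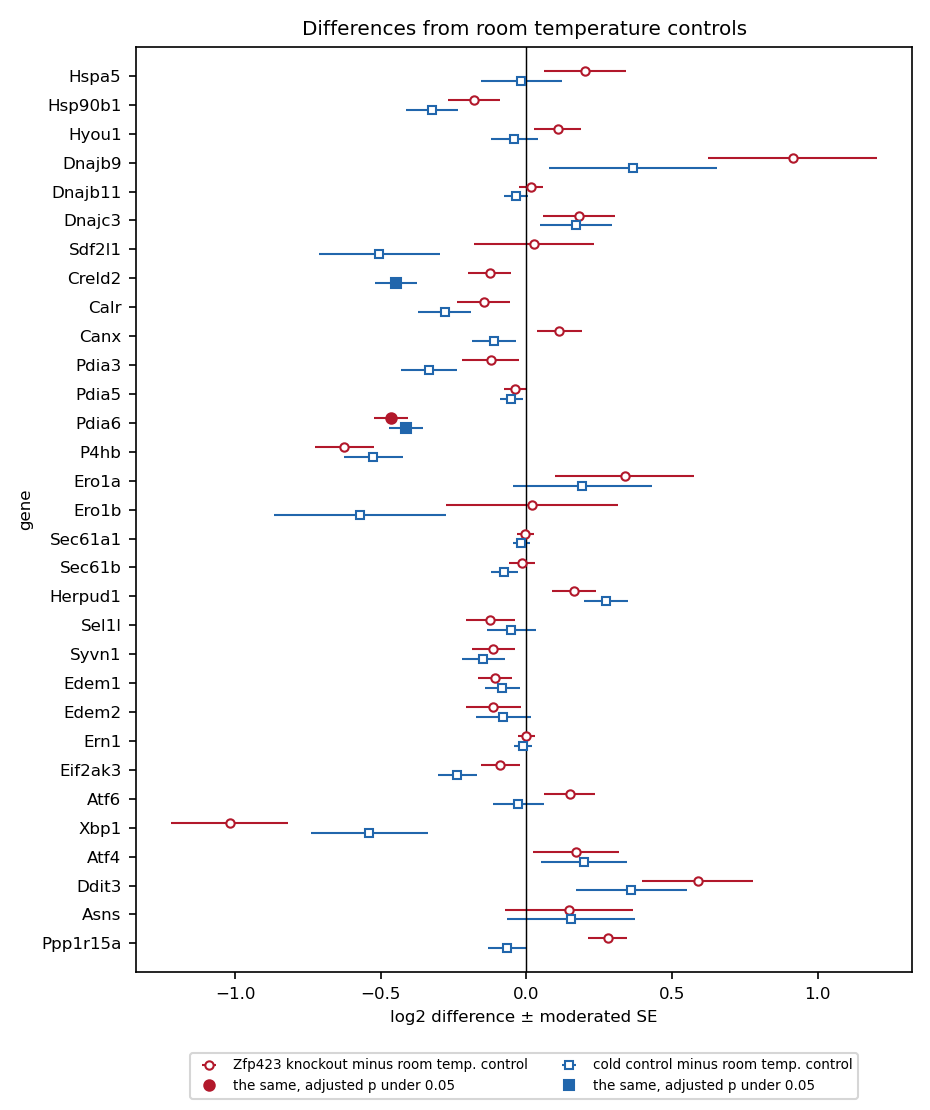
Log2 differences of the 31 members from room temperature controls with their moderated standard errors, knockout and cold side by side. Filled points passed at an adjusted p under 0.05: Pdia6 in both comparisons and Creld2 in cold. Open points did not pass, and the widest errors belong to Ero1b, Dnajb9 and Ero1a.

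Further genes of the same pathways, in 5 lists with 118 measured genes, gave few calls as well. In knockout against room temperature controls 1 of 118 was higher and 0 lower (0.847%, against 0.367% of all genes). In cold 1 was higher and 1 lower (1.69%, against 1.51% of all genes). In cold against knockout 0 were higher and 1 lower (0.847%, against 2.40% of all genes). The medians of the 118 were 0.03 in knockout, -0.03 in cold and -0.03 in cold against knockout, close to those of all genes.

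The calls were in the amino acid and one-carbon branch of ATF4 targets and in degradation. Mthfd2, a mitochondrial folate enzyme induced by ATF4, read 7.31, 7.30 and 7.23 in knockout, 6.46, 6.60 and 6.70 in cold and 6.46, 6.75 and 6.69 in room temperature controls. Knockout arrays lay above all others (0.65 ± 0.09 against room temperature, adjusted p = 0.0469), and cold minus knockout was -0.69 ± 0.09 (adjusted p = 0.0183). Psph, the last enzyme of serine synthesis, read 6.53, 6.70 and 6.69 in cold, above 6.09, 6.25 and 6.19 in room temperature controls (0.46 ± 0.07, adjusted p = 0.0346). Os9, a lectin of ER-associated degradation, read 10.77, 10.72 and 10.72 in cold, below 11.13, 10.99 and 11.01 in room temperature controls (-0.31 ± 0.05, adjusted p = 0.0344).

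In the lists with no call, genes among those with the smallest p are given. Of the 24 translocon and glycosylation genes, Stt3a, a catalytic subunit of the oligosaccharyltransferase, differed by -0.24 ± 0.06 in knockout (adjusted p = 0.106), and Ddost, a further subunit, by -0.28 ± 0.07 in cold (adjusted p = 0.111). In cold 21 of these 24 genes lay below and 3 above the room temperature mean, with a median of -0.13 beside -0.02 and 56.0% below for all genes. With quantile normalization 19 lay below (47.6% of all genes), and with arrays centred on their median 15 (45.6%). Of the 27 further folding enzymes, Txndc5 differed by -0.41 ± 0.09 in knockout (adjusted p = 0.0871) and Uggt1, which senses unfolded glycoproteins, by -0.23 ± 0.08 in cold (adjusted p = 0.167). In cold against knockout, Uggt1 differed by -0.31 ± 0.08 (adjusted p = 0.0732), and Mogs, the glucosidase that starts the trimming of sugar chains, by -0.24 ± 0.06 (adjusted p = 0.0679). Of the 19 further sensors and regulators, Creb3l1, a membrane-bound factor related to ATF6, differed by -0.65 ± 0.11 in knockout (adjusted p = 0.0593) and -0.45 ± 0.11 in cold (adjusted p = 0.0972). In cold against knockout the smallest p in that list was that of Ppp1r15b, a phosphatase partner like GADD34 (-0.51 ± 0.16, adjusted p = 0.11), and among the translocon and glycosylation genes that of Spcs2, a signal peptidase subunit (-0.14 ± 0.04, adjusted p = 0.117).

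Immune markers were also at lower levels in the cold, beside the members that were lower there. The log2 of the summed level of 9 macrophage markers ran from 15.24 to 17.77 in knockout, from 14.97 to 15.06 in cold and from 15.45 to 17.10 in room temperature controls. The 7 measured T cell markers of 9 listed ran from 12.65 to 14.63 in knockout, from 11.75 to 11.90 in cold and from 12.58 to 13.40 in room temperature controls. None of these markers passed the test singly in cold against room temperature controls, and all of them were lower there on every array. Skeletal muscle markers, 8 of 8 measured, had the lowest cold median of any list against room temperature controls (-1.81), and none passed. The log2 of their summed level was 14.77, 17.08 and 16.21 in knockout, 16.92, 15.65 and 10.5 in cold and 16.30, 16.92 and 16.62 in room temperature controls, so cold replicate 3 stood apart. That array was also the lowest of the cold for Pdia6, Hsp90b1, Calr, Pdia3, P4hb and Xbp1, among other members. For Creld2 it was the highest of the cold, as it was for Canx, Ero1a, Ero1b, Herpud1, Syvn1, Atf6 and Ppp1r15a. The share of all genes in which it was lowest was not taken. Without cold replicate 3 the cold difference was -0.39 for Pdia6 (adjusted p = 0.0852) and -0.49 for Creld2 (adjusted p = 0.0802). The part of muscle and immune cells in the members' cold differences was not tested.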

How the data were processed

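Each of the 9 samples was hybridised to an Affymetrix MTA-1_0 array, per the labels. The authors deposited log2 values for 72688 rows, made with Affymetrix Expression Console per the submitters' processing notes, and the log2 scale was inferred from their range. The software version, summarisation and genome build: not given in the sources used here.

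Of 65770 transcript clusters, 31047 named 1 gene, 1538 several and 33185 none in the platform annotation; symbols were updated through the Entrez ID with the RefSeq table of GRCm38.p6. Rows naming 1 gene with a mean of at least 5.31, the median row mean, were kept, and the brightest row represented a gene. limma 3.58.1 in R 4.3.3 (lmFit and eBayes, trend and robust off) fitted 3 group means over the 9 arrays with 6 residual and 1.23 prior degrees of freedom, and p-values were two-sided and Benjamini-Hochberg adjusted over 16899 genes. The number of arrays limits the precision. The fit was checked on simulated data with independent normal noise on each array. That check does not cover in-between arrays or repeated values. Groups came from the titles; samples sharing a number were not found to be paired.

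Any member could be named; by rule those past the threshold, and the one with the largest difference in each role, got all array values, and further members' array values were printed after they were seen. Of each other list, up to 4 genes past the threshold or the 2 with the smallest p were eligible; Zfp423 and Ucp1 were added. The members and the gene lists were chosen with earlier results of these data known. The alternatives were other normalizations, filters, variance models, rows per gene and sets of arrays. Protein sequences were not used here.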

Additional observations from a re-analysis of the deposited data

Results flagged for a closer look

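The genes Ppp1r15a, Mthfd2 and Tmx1 stood out in cold against knockout; the first 2 passed. Ppp1r15a was lower in cold than in knockout by a log2 difference of -0.34 (adjusted p = 0.0494), a test of the difference itself. Mthfd2 was lower in cold than in knockout by -0.69 (adjusted p = 0.0183), by the same test. Tmx1, a membrane-bound thioredoxin of the ER, lay above all room temperature arrays in knockout and below all of them in cold. Its cold minus knockout difference of -0.16 did not pass, and nothing beyond this opposition of directions was tested for it.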

How the results depend on the processing

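In knockout against room temperature controls, the count of members past the threshold was 1 as reported and with centring, the mean of all rows or without constant genes (an alternative chosen after seeing the data). It was 2 with quantile normalization (116 of all genes) and with the stricter filter (146 of all genes). It was 0 with no filter (14 of all genes) and with trend and robust variance (37 of all genes). With single arrays left out it was 0 to 3 (0 to 833 of all genes). With the 2 groups alone it was 0, where 0 of all genes passed, so that fit says nothing about the members. In cold it was 2 as reported (255 of all genes). It was 3 with quantile normalization (406 of all genes), with the stricter filter (317) and with the 2 groups alone (1346). It was 1 with no filter (130 of all genes) and 0 to 3 with single arrays left out (23 to 985). In cold against knockout it was 1 as reported (405 of all genes). It was 0 with centring (519 of all genes), with no filter (222), with trend and robust variance (321) and with the 2 groups alone (352). It was also 0 with the stricter filter (708 of all genes). That filter, a row mean of 7.39, leaves out Ppp1r15a, the member called, so that 0 is no check on its call. With single arrays left out it was 0 to 2 (14 to 2697 of all genes). Without the in-between array of each group it was 0 in every comparison, as for all genes. Array weights gave 24, 21 and 18 members, beside about 11820, 8977 and 9974 of all genes. They put a weight of 1479 on knockout replicate 3, and that fit did not converge. The cause of the other shifts was not tested. With the replicate number as a block, 0 members passed in each of the 3 comparisons (1, 42 and 36 of all genes). Residuals of same-numbered arrays correlated between -0.46 and 0.08, so the numbers are not taken as a pairing. Those of knockout replicate 1 and control replicate 2 correlated at 0.47, and those of knockout replicate 2 and control replicate 1 at 0.453. The source of these correlations was not tested.

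Pdia6 passed in knockout under 8 of 20 alternatives and in cold under 11 of 20, Creld2 in cold under 11 of 20 and Ppp1r15a in cold against knockout under 6 of 19, with no change of sign in any of these. Signs turned only in small differences. In knockout, Canx became -0.022 with quantile normalization and Sdf2l1 -0.0078 with centring, -0.057 without the in-between arrays and -0.13 to 0.22 with single arrays left out. In cold, Ppp1r15a became 0.0062 without the in-between arrays and Sel1l 0.0031 with array weights and -0.11 to 0.046 with single arrays left out. In cold against knockout, Sec61b became 0.011 with centring, Atf4 -0.0022 with array weights and -0.13 to 0.16 with single arrays left out, and Pdia6 -0.020 with array weights and -0.0029 to 0.085 with single arrays left out. The 14 members with no call, no largest difference in their role and no groups apart all changed sign in at least 1 setting, and none passed except with array weights. No detection call is given, so how far dim rows such as that of Ppp1r15a stand above background is not known.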
